A study of Mus musculus with 32 samples.

Results

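The spinal cord transcriptomes of WT and SOD1-G93A mice were searched for 7 long noncoding RNAs that are either retained in the nucleus or transcribed from an imprinted locus: Malat1, Neat1, Meg3, Rian, Mirg, Miat and Snhg11. They are 7 of the 42524 genes in the table of read counts, and each was taken by its symbol. SOD1-G93A mice (C57BL/6J background) carry a human SOD1 transgene with the G93A substitution and develop a motor neuron disease that models amyotrophic lateral sclerosis; WT mice were littermates. Pieces of spinal cord from 32 mice were sequenced, their level along the cord not given in the sources used here, with 4 mice in each of 8 groups: WT or G93A, untreated or given OKN007 in the drinking water, and labelled 90 or 155 days. OKN007 is a nitrone with anti-inflammatory activity, the RNA methods do not tie the sequenced mice to a dose, though the sampling ages are those of the higher-dose cohorts, which were female, and the study's methods give a slightly later age at sacrifice for the group labelled 90 days. No gene in the mouse count table stands for the human transgene, so the genotype labels could not be checked against it, and it was not analysed here.

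Long noncoding RNAs are transcribed by RNA polymerase II and often spliced, but carry no long open reading frame. Malat1 lies in nuclear speckles, the compartments where splicing factors are stored, and Neat1 is the scaffold RNA of paraspeckles, nuclear bodies that hold RNA-binding proteins such as NONO, SFPQ and the ALS protein TDP-43. Meg3, Rian and Mirg are transcribed from the maternal chromosome of the imprinted Dlk1-Dio3 domain, where Rian hosts small nucleolar RNAs and Mirg hosts a cluster of miRNAs, while Dlk1, Rtl1 and Dio3 are transcribed from the paternal chromosome. Miat (Gomafu) forms its own nuclear domains and binds splicing factors, Snhg11 is a snoRNA host gene, and Meg3, Rian, Miat and Snhg11 are all known for high levels in neurons.

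In GRCm38 with GENCODE M21, Malat1 lies at chr19:5795690-5802672 and Neat1 at chr19:5824708-5845478, both on the minus strand and 22035 bases apart. Meg3 at chr12:109541001-109571726, Rian at chr12:109603940-109661716 and Mirg at chr12:109729764-109749460 share the plus strand and together span 208460 bases. Miat lies at chr5:112213228-112229395 on the minus strand and Snhg11 at chr2:158375638-158386145 on the plus strand. The annotation lists Malat1, Neat1, Meg3, Mirg and Miat as lincRNA, Rian as processed transcript and Snhg11 as protein coding. A lincRNA on the opposite strand overlaps Meg3 (Gm26906) and another overlaps Miat (Gm26953), Gm26945 on the same strand lies inside Rian, and an unverified gene (Gm37376) faces Malat1. Because the strand setting of the counting is not given in the sources used here, reads of the partners on the opposite strand cannot be told apart from those of Malat1, Meg3 and Miat, and how reads shared by Rian and Gm26945 were assigned is likewise not given.

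Within their spans, RefSeq (GRCm38.p6) places 14 miRNA hairpins in Mirg, 3 in Rian and 1 in Meg3, the last with its 2 arms and a separate mature miRNA. Mature miRNAs were not measured by these poly(A)-selected libraries, so a change of a host transcript gives no level for its miRNAs. A few are shown because they are what the host RNAs carry, with the seed (bases 2 to 8) in capitals; miR-453 and miR-496a-5p, both in Mirg, share the seed GGUUGCC, and the others printed each have a seed of their own among the miRNAs of these hosts.
miR-770-5p (Meg3, chr12:109563710-109563731): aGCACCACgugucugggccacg
miR-370-3p (Rian, chr12:109618305-109618326): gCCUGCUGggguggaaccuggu
miR-134-5p (Mirg, chr12:109734145-109734166): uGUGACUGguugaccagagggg
miR-453 (Mirg, chr12:109735669-109735692): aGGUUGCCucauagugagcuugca
miR-496a-5p (Mirg, chr12:109739132-109739152): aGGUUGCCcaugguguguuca
miR-410-3p (Mirg, chr12:109743764-109743784): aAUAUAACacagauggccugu

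The total gene count of a library ran from 19701722 to 30138257 (median 26658755), and the 7 RNAs took 1.08% to 1.99% of them. Counts were scaled by edgeR's TMM method and are given as CPM, the share of a library scaled to the same total in all mice. The lowest count of any of the 7 in any mouse was 596, and 3 counts equal 0.152 CPM in the library of lowest depth, a limit that covers counting error only. Among the libraries, that of the untreated G93A mouse 10 at 90 days was the smallest and held 35477 genes with a count, against 25551 to 31802 in the other mice. No labels name a batch, so the time points cannot be told apart from any batch that goes with them. Two-sided quasi-likelihood tests of edgeR compared the groups, p-values were adjusted by the Benjamini-Hochberg method over all genes tested, and a gene was called at an adjusted p under 0.05. All 7 RNAs passed the filter on low counts in every fit.

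Per kilobase of annotated exon, the 7 RNAs spanned a wide range of levels. The length was that of all annotated exons of a gene merged, 20771 bases for Neat1, whichever transcript forms the libraries captured. The order of levels rests on this choice. It also rests on how fully the poly(A) selection captured each RNA, which was not measured. In untreated WT mice at 155 days, Malat1 stood at 380 CPM per kb ± 44.8 (SD, n = 4), Meg3 at 367 ± 85.8 and Snhg11 at 281 ± 56.7. Malat1 and Meg3 differed by less than their spread. Within each of the 4 mice Meg3 lay above Snhg11, at 369.7, 260.7, 365.3 and 470.8 against 277.9, 211.1, 286.3 and 349.6 CPM per kb. Miat followed at 48.4 ± 8.75, Neat1 at 32.1 ± 5.54, Rian at 26.2 ± 2.77 and Mirg at 4.74 ± 0.992 CPM per kb. In untreated G93A mice of this age Neat1 stood at 75.1 CPM per kb ± 18.8, above Miat at 34.5 ± 4.86 on this measure. Over all 32 mice the highest level was between 1.94 times (Rian and Miat) and 4.03 times (Neat1) the lowest.

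**Figure D1:**
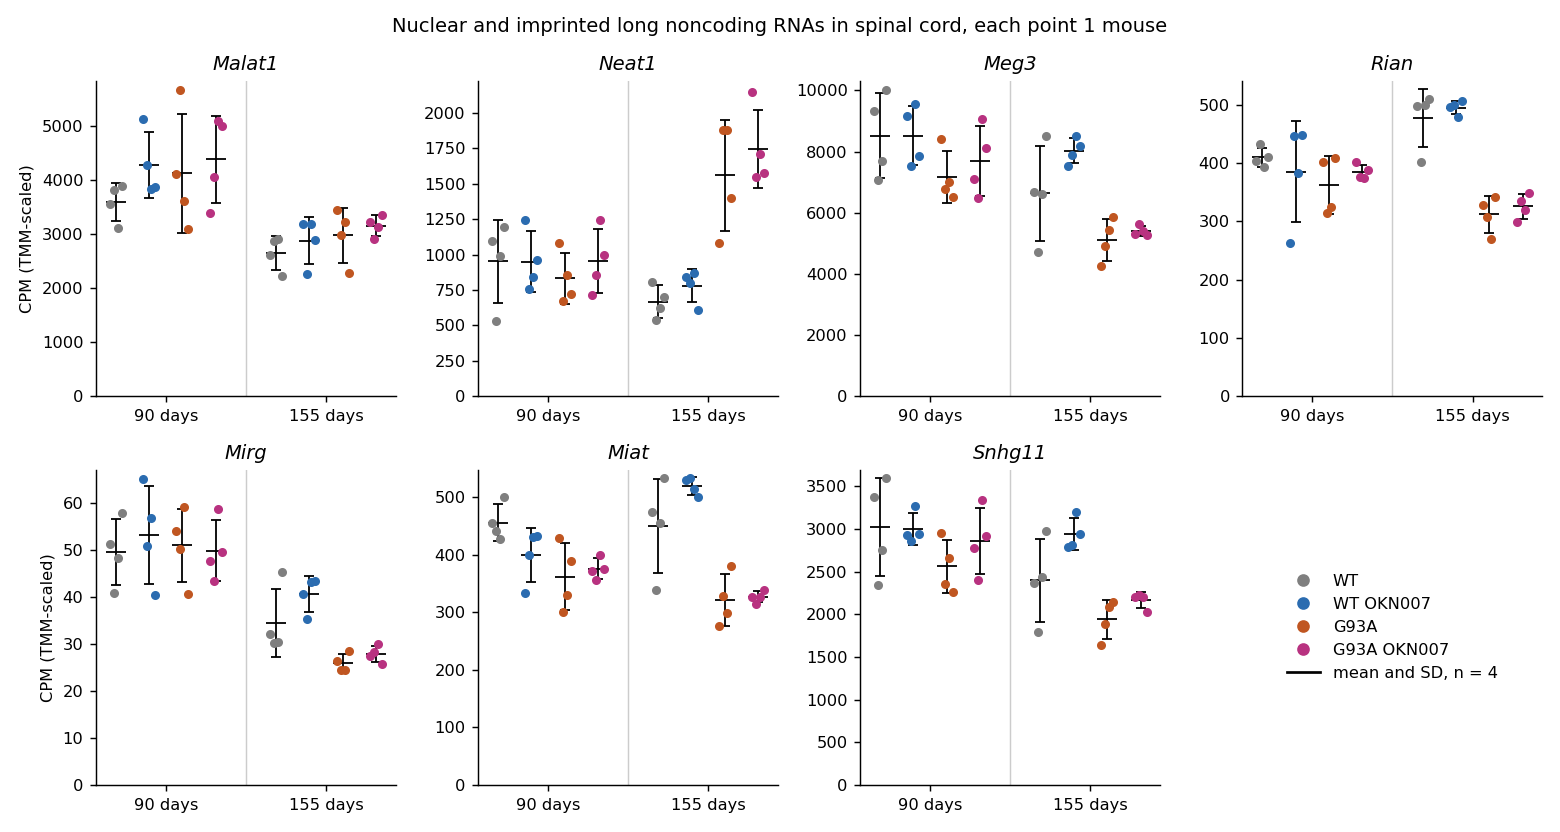
CPM of each RNA (vertical axes from 0, TMM-scaled) in the 8 groups, 90 days on the left and 155 days on the right of each panel; points are mice, lines the mean and SD of 4 mice. At 155 days both G93A groups lie above both WT groups for Neat1, from 1082 CPM against at most 866, and below them for Rian, with at most 348 CPM against at least 402.

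At 155 days, Neat1 was 2.41-fold higher in untreated G93A than in untreated WT spinal cord. Rian, Miat, Mirg and Meg3 stood at 0.676-fold to 0.798-fold the WT level, and Malat1 did not pass the test. Reads of Neat1 were counted per gene in poly(A)-selected libraries, so its transcript forms were not told apart and paraspeckles were not measured. The comparison of untreated G93A with untreated WT mice asks what the late stage of the disease changed. In this comparison 5 of the 7 RNAs were called, 1 higher and 4 lower, where 39.5% of the 18675 genes tested were called, 21.3% higher and 18.2% lower. The groups did not overlap for 3 of the 7, Neat1, Rian and Mirg, against 33.3% of all genes tested.

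Neat1 read 808, 538, 621 and 699 CPM in the 4 untreated WT mice and 1082, 1875, 1881 and 1399 CPM in the 4 untreated G93A mice. The lowest G93A mouse lay above the highest WT mouse, and the G93A mice were spread more widely than the WT mice. The log2 fold change was 1.27 ± 0.16 (SE), a 2.41-fold increase (95% interval 1.93 to 3), with an adjusted p of 5.09e-06 by edgeR's quasi-likelihood test. Treated mice gave the same picture: 841, 798, 866 and 610.1 CPM in WT against 2144, 1546, 1711 and 1572 CPM in G93A, a log2 fold change of 1.24 ± 0.16 (adjusted p = 5.88e-06).

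Malat1, the neighbour of Neat1 and the abundant RNA of nuclear speckles, read 2224 to 2904 CPM in untreated WT and 2269 to 3438 CPM in untreated G93A mice at 155 days. The groups overlapped, and the log2 fold change of 0.22 ± 0.13 had an adjusted p of 0.193; the 95% interval of the fold ran from 0.977 to 1.38. Without the untreated G93A mouse 12, its lowest, the adjusted p was 0.0329 with a log2 fold change of 0.32. In treated mice the log2 fold change was 0.21 ± 0.13 (adjusted p = 0.206).

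Rian, the snoRNA host of the Dlk1-Dio3 domain, read 498, 402, 499 and 509.8 CPM in untreated WT and 328, 307, 270.0 and 342 CPM in untreated G93A mice. The WT mouse 2 stood below the other 3 WT mice, yet every G93A mouse was lower still. The log2 fold change was -0.56 ± 0.084 (0.676-fold, 95% interval 0.603 to 0.758, adjusted p = 3.22e-05). In treated mice, the 4 WT values lay between 479 and 506 CPM and the 4 G93A values between 299 and 348 CPM, with a log2 fold change of -0.53 ± 0.084 (adjusted p = 5.23e-05).

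Mirg, the miRNA host at the far end of the cluster, read 32.2, 30.2, 30.5 and 45.3 CPM in untreated WT and 26.3, 24.5, 24.4 and 28.5 CPM in untreated G93A mice. One WT mouse, replicate 4, stood above the rest, and the lowest WT mouse was only slightly above the highest G93A mouse. The log2 fold change was -0.37 ± 0.11 (adjusted p = 0.0152), and this call was lost without WT mouse 4 (-0.19, adjusted p = 0.1) or G93A mouse 10 (-0.33, adjusted p = 0.0604), and with only these groups in the fit (-0.37, adjusted p = 0.0507). In treated mice, where WT read 35.4 to 43.4 CPM and G93A 25.8 to 29.9 CPM, it was -0.47 ± 0.11 (adjusted p = 0.00264).

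Meg3, the most abundant RNA of the domain and a known partner of chromatin-modifying complexes, read 6688, 4715, 6608 and 8517 CPM in untreated WT and 4270.1, 4911, 5449 and 5853 CPM in untreated G93A mice. The WT mouse 2 fell inside the range of the G93A mice. Its log2 fold change of -0.33 ± 0.12 was just past the threshold (adjusted p = 0.0406) and was lost when any one of WT mice 1, 3 and 4 or G93A mice 9 and 10 was left out, with log2 fold changes of -0.33, -0.33, -0.16, -0.24 and -0.29 and adjusted p-values of 0.072, 0.0653, 0.241, 0.156 and 0.116, respectively. It was also lost with only these groups in the fit (-0.33, adjusted p = 0.127). Treated mice did not overlap, at 7542 to 8508 CPM in WT and 5287 to 5620.8 CPM in G93A mice, and the log2 fold change was -0.50 ± 0.12 (adjusted p = 0.00299).

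Miat, which sequesters splicing factors in neuronal nuclei, read 474, 339, 454 and 533 CPM in untreated WT and 276, 328, 298 and 380.1 CPM in untreated G93A mice. Only WT mouse 2 lay within the G93A range. The log2 fold change was -0.44 ± 0.11 (adjusted p = 0.00262) and reached -0.59 ± 0.11 (adjusted p = 0.000182) in treated mice, whose groups stood well apart at 499 to 533 and 315 to 338 CPM. Snhg11 read 1798 to 2979 CPM in untreated WT and 1645 to 2141 CPM in untreated G93A mice, with a log2 fold change of -0.26 ± 0.11 that did not pass (adjusted p = 0.0718). It passed without WT mouse 2 (-0.35, adjusted p = 0.00751) or G93A mouse 12 (-0.31, adjusted p = 0.0428). In treated mice, at 2788 to 3199 CPM in WT and 2030.0 to 2231 CPM in G93A, it was called lower by 0.36 ± 0.11 on the log2 scale (adjusted p = 0.0121).

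Thus 6 of the 7 RNAs were called in the treated comparison, 1 higher and 5 lower, where 41.5% of the genes tested were called, 23.3% higher and 18.2% lower. The same 6 had groups that did not overlap, against 45.4% of all genes. The treated and untreated comparisons shared no mice, but both used the same estimate of the spread.

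**Figure D2:**
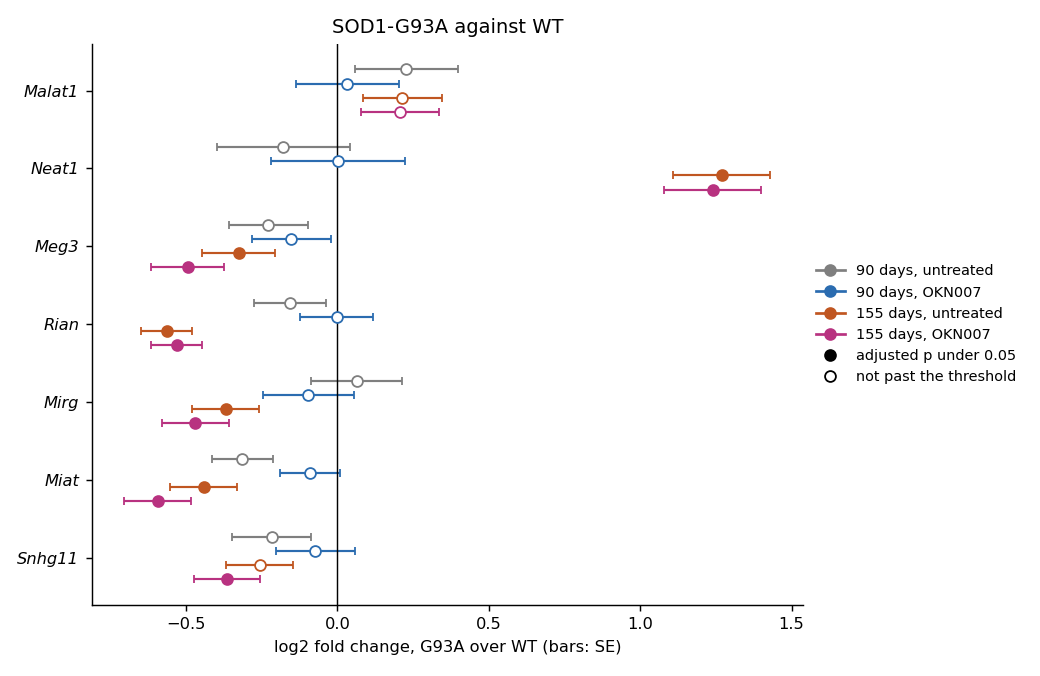
Log2 fold change of G93A over WT for each RNA (horizontal axis, bars 1 SE) at 90 and 155 days in untreated and treated mice; filled points passed an adjusted p of 0.05. At 155 days Neat1 lies at 1.27 and 1.24, Malat1 at 0.22 and 0.21 with open points, and the other 5 RNAs lie below 0, while no point is filled at 90 days.

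At 90 days, none of the 7 RNAs differed between the genotypes past the threshold. In untreated mice 0 of 7 were called by edgeR's quasi-likelihood test (0% of the 18899 genes tested), 1 had an unadjusted p under 0.05 (5.96% of all genes), and DESeq2 called 0 of 7. That RNA was Miat, at 455, 441, 427 and 500.1 CPM in WT and 429.5, 299.8, 329.7 and 388 CPM in G93A mice, with a log2 fold change of -0.31 ± 0.10, an unadjusted p of 0.00556 and an adjusted p of 0.794. One G93A mouse lay among the WT mice. In treated mice 0 of 7 were called (0% of genes), 0 had an unadjusted p under 0.05 (3.95% of genes), and the log2 fold change farthest from 0 was that of Meg3, at -0.15.

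The G93A change of Neat1 differed between the time points in a fit of all 32 mice. In untreated mice the log2 fold change at 155 days exceeded that at 90 days by 1.43 ± 0.29 (adjusted p = 0.000504), and 1 of the 7 RNAs was called, where 21.2% of 19829 genes were, 12.9% as more positive and 8.34% as more negative. In treated mice the same difference was 1.2 ± 0.29 for Neat1 (adjusted p = 0.00283), -0.56 ± 0.16 for Rian (adjusted p = 0.0102) and -0.54 ± 0.15 for Miat (adjusted p = 0.00989), so that 3 of 7 were called against 23% of genes, 13% as more positive and 9.97% as more negative. For Rian in untreated mice the difference was -0.42 ± 0.16 with an adjusted p of 0.0537, and it passed without the untreated WT mouse 2 of either time point (adjusted p = 0.0453 for 90 days and 0.031 for 155 days), without G93A mouse 10 or 11 at 90 days (0.0431 and 0.0381) and without G93A mouse 9 or 12 at 155 days (0.0366 and 0.029). For Mirg it was -0.45 ± 0.19 (adjusted p = 0.0921) and -0.54 without G93A mouse 12 at 90 days (adjusted p = 0.0432).

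OKN007 was given to ask whether it alters the course of the disease. In G93A mice at 155 days 0 of the 7 RNAs were called by edgeR's quasi-likelihood test (0% of 18675 genes), 0 had an unadjusted p under 0.05 (4.04% of genes), and DESeq2 called 0. Neat1 stood at 1559 CPM ± 390 (SD, n = 4) in untreated and 1743 ± 277 in treated G93A mice, a 1.13-fold difference with a 95% interval of 0.908 to 1.4. Rian stood at 311.9 ± 31.4 and 325.7 ± 21 CPM, a 1.05-fold difference with an interval of 0.935 to 1.17. These intervals do not show that the levels were alike in treated and untreated mice.

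In WT mice at 155 days 0 of 7 were called (0% of genes), while Meg3 and Snhg11 had an unadjusted p under 0.05 (2.94% of genes). Meg3 had a mean of 6632 CPM ± 1550 (SD, n = 4) in untreated and 8026 ± 412 in treated WT mice, a log2 fold change of 0.26 ± 0.12 (unadjusted p = 0.0497, adjusted p = 1), and Snhg11 had means of 2396 ± 483 and 2936 ± 187, a log2 fold change of 0.27 ± 0.11 (unadjusted p = 0.0224, adjusted p = 1). Treated and untreated WT mice overlapped for both. The genotype by treatment interaction, the test of whether OKN007 acted differently in the 2 genotypes, called 0 of 7 at either time point (0% of genes), with 0 of the 7 at an unadjusted p under 0.05 (2.81% of genes at 90 and 2.34% at 155 days). At 90 days OKN007 gave 0 calls among the 7 in either genotype (0% of genes), and 0 at an unadjusted p under 0.05 (5.56% of genes in G93A and 4.07% in WT mice). DESeq2 called 0 of 7 in each of these comparisons.

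From 90 to 155 days, Malat1 and Mirg were lower in all 4 combinations of genotype and treatment, and Neat1 was higher in G93A mice. In untreated WT mice 3 of 7 were called, all lower (24.9% of 19829 genes were called, 15.3% higher and 9.61% lower): Malat1 by 0.43 ± 0.16 on the log2 scale, from 3102 to 3892 CPM at 90 days to 2224 to 2904 CPM at 155 days (adjusted p = 0.0439), Mirg by 0.51 ± 0.13 (adjusted p = 0.00657) and Meg3 by 0.35 ± 0.13 (adjusted p = 0.0435). Malat1 was the 1 of these whose groups did not overlap (18.7% of genes). The Mirg call held without each mouse in turn, whereas Malat1 and Meg3 were each lost without 5 of the 8 mice. Without any one of WT mice 1 and 4 at 90 days or WT mouse 1 at 155 days only Mirg was called. The Meg3 call also ended with no filter on low counts (-0.36, adjusted p = 0.0681) and with only these groups in the fit (-0.4, adjusted p = 0.101).

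In untreated G93A mice 5 of 7 were called (33.7% of genes), 1 higher (21%) and 4 lower (12.8%), and the groups did not overlap for 4, Neat1, Meg3, Mirg and Snhg11 (26.8% of genes). Mirg fell from 54.2, 50.3, 59.1 and 40.6 CPM at 90 days to 26.3, 24.5, 24.4 and 28.5 CPM at 155 days, a 0.516-fold level (log2 fold change -0.96 ± 0.14, adjusted p = 1.67e-06). Each of the later mice lay below each of the earlier ones. Meg3 fell by 0.47 ± 0.13 (adjusted p = 0.00519), Malat1 by 0.45 ± 0.16 (adjusted p = 0.0253) and Snhg11 by 0.38 ± 0.12 (adjusted p = 0.0152), while Neat1 rose by 0.93 ± 0.21 (adjusted p = 0.000684). The Malat1 call was lost without mouse 10 at 90 days (-0.26, adjusted p = 0.187), which held the highest Malat1 level of all mice, 5654 CPM, or without mouse 12 at 155 days (-0.36, adjusted p = 0.087), and the Snhg11 call without mouse 9 of 90 days (adjusted p = 0.0686) or of 155 days (adjusted p = 0.0567). Both calls also ended with a score of caudal Hox genes, described further on, as a covariate (Malat1 -0.39, adjusted p = 0.0819; Snhg11 -0.27, adjusted p = 0.0702), and that of Malat1 with only these groups in the fit (-0.49, adjusted p = 0.0936).

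In treated G93A mice the same 5 RNAs were called (32.9% of genes), 1 higher (19.8%) and 4 lower (13.1%), and all 7 had groups without overlap (37.6% of genes), with Mirg at -0.80 ± 0.14 (adjusted p = 2.09e-05) and Neat1 at 0.91 ± 0.21 (adjusted p = 0.000852). Without mouse 15 at 90 days 3 were called, Neat1, Meg3 and Mirg. The call of Malat1 was also lost without mouse 16 at 90 days (adjusted p = 0.102) and mice 14 and 15 at 155 days (0.07 and 0.0507), and that of Snhg11 without mouse 16 at 155 days (0.0541). In treated WT mice 4 of 7 were called (31.3% of genes), 2 higher (17.8%) and 2 lower (13.5%), and Malat1, Rian and Miat did not overlap (31.3% of genes). Malat1 at -0.58 ± 0.16 (adjusted p = 0.00559) and Mirg at -0.40 ± 0.13 (adjusted p = 0.0229) were lower, and Rian at 0.35 ± 0.11 (adjusted p = 0.0164) and Miat at 0.37 ± 0.11 (adjusted p = 0.00871) were higher. The Rian call ended with only these groups in the fit (0.32, adjusted p = 0.0702), that of Miat with the Hox covariate (0.3, adjusted p = 0.0776), and that of Mirg without mouse 7 at 90 days (adjusted p = 0.0637) or mouse 6 at 155 days (0.083). Without WT mouse 5 at 90 days only Malat1 was called. That mouse had the lowest Rian level of all 32 mice, 263 CPM, against 383 to 448 CPM in the other 3 of its group, together with the lowest Miat level of its group (333 CPM), its highest Malat1 level (5133 CPM) and the highest Mirg level of all mice, 65.1 CPM.

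Cell markers moved with time as well. Over all genes tested, 9.61%, 12.8%, 13.5% and 13.1% were called lower in untreated WT, untreated G93A, treated WT and treated G93A mice. The shares called higher were 15.3%, 21%, 17.8% and 19.8% in the same order. Of 10 oligodendrocyte markers, 9 were called lower in untreated WT, 7 in untreated G93A, 9 in treated WT and 8 in treated G93A mice, and their sum went from 33860 to 41010 CPM at 90 days to 21910 to 24610 CPM at 155 days in untreated WT mice. Of 18 neuronal markers, 8 were higher in untreated and 10 in treated WT mice, whereas 8 and 9 were lower and 1 and 0 higher in untreated and treated G93A mice by edgeR's test. The 12 microglial markers were all higher in untreated G93A mice and 11 were higher in treated G93A mice, while 1 and 8 were lower in untreated and treated WT mice. The part of these shifts in the changes of the 7 RNAs was not tested.

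**Figure D3:**
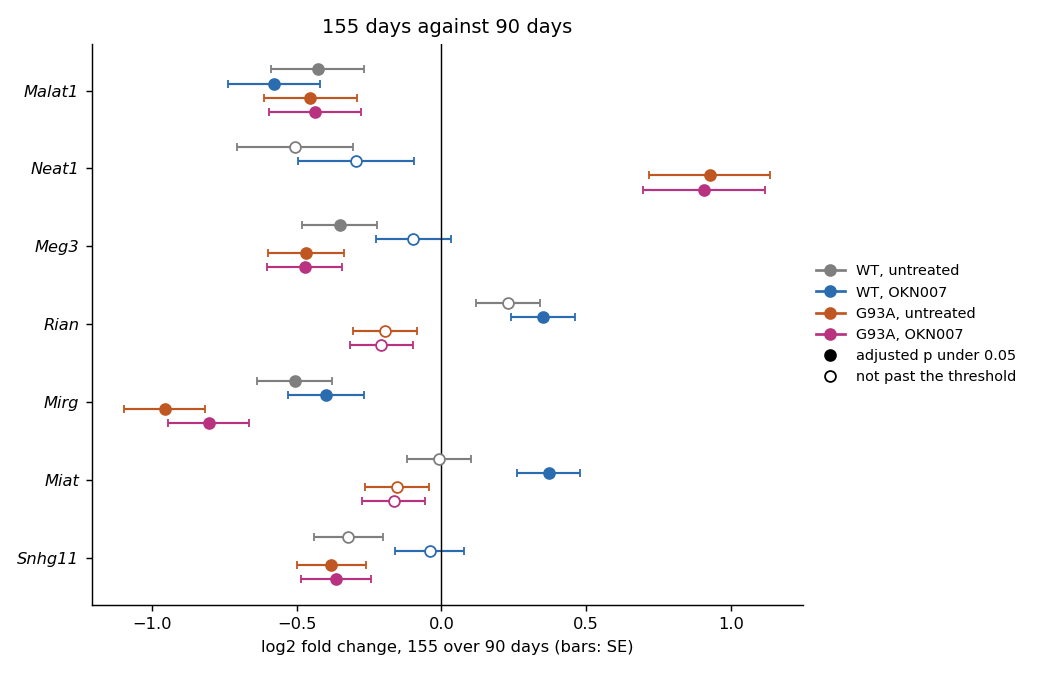
Log2 fold change of 155 over 90 days for each RNA (horizontal axis, bars 1 SE) in the 4 combinations of genotype and treatment; filled points passed an adjusted p of 0.05. Mirg and Malat1 lie below 0 with filled points in all 4, and Neat1 lies at 0.93 and 0.91 in G93A mice and at -0.50 and -0.29 with open points in WT mice.

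Ratios between members within a mouse do not depend on library size or scaling. The log2 ratio of Neat1 to Malat1 counts at 155 days was -1.69, -2.41, -2.23 and -1.67 in untreated WT and -1.67, -0.666, -0.776 and -0.698 in untreated G93A mice. G93A mouse 9 lay close to the 2 highest WT mice. The means differed by 1.05 in untreated and by 1.02 in treated mice, each with p = 0.0286 by a two-sided exact permutation test, the smallest p that 4 against 4 allows, and an adjusted p of 0.172 over the 12 ratio comparisons of genotypes. The ratios of Rian and of Mirg to Meg3 differed between the genotypes by at most 0.28 in either direction, with exact p-values from 0.0571 to 0.771 and adjusted p-values from 0.228 to 0.8.

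Between the time points, the ratio of Mirg to Meg3 was lower at 155 days in both G93A groups, though not past the adjustment. Its log2 ratio to Meg3 went from -7.14 ± 0.203 (SD, n = 4) to -7.62 ± 0.196 in untreated and from -7.26 ± 0.0643 to -7.60 ± 0.077 in treated G93A mice. In each case the groups did not overlap (exact permutation p = 0.0286, adjusted p = 0.0858 over 12 comparisons of time points, which were chosen after the data were seen). The ratio was also lower at 155 days in both WT groups, with differences of -0.153 in untreated and -0.292 in treated mice (exact permutation p = 0.229 and 0.0857, adjusted p = 0.25 and 0.129), and whether the genotypes differed in this was not tested. The ratio of Rian to Meg3 was higher at 155 days in all 4 combinations, by 0.25 to 0.59, with exact permutation p-values between 0.0571 and 0.2 and adjusted p-values between 0.129 and 0.24.

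**Figure D4:**
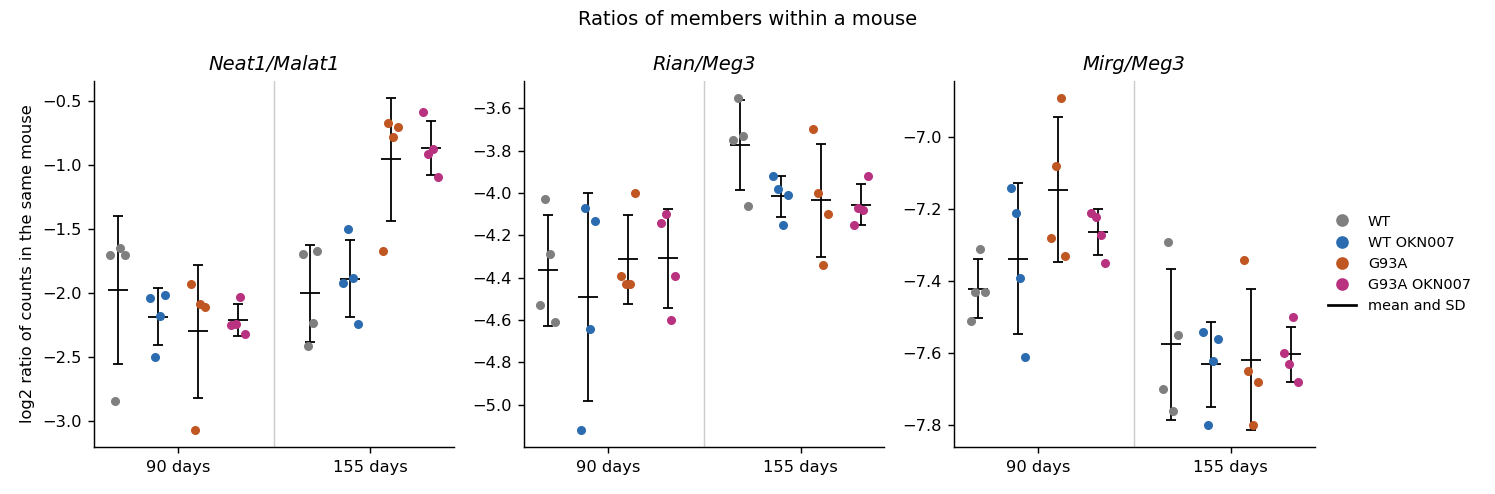
Log2 ratio of counts within a mouse for Neat1 to Malat1, Rian to Meg3 and Mirg to Meg3 (vertical axes) in the 8 groups; points are mice, lines the mean and SD of 4 mice. The mean Neat1 to Malat1 ratio lies at -0.952 and -0.866 in the G93A groups at 155 days and between -2.30 and -1.88 in the other 6 groups.

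Among mice of the same group, Meg3 and Snhg11 varied together although they lie on different chromosomes. The deviations of log2(CPM + 1) from the group means were correlated over 32 mice with Pearson's r = 0.95 and Spearman's rho = 0.909 (both with p = 1e-05, the smallest that the 100000 permutations within groups can give; adjusted p = 0.00021 over 21 pairs). Leaving out the 2 mice farthest from the median of Meg3 gave r = 0.928, and r was 0.924 over the 16 mice of 90 days and 0.981 over the 16 of 155 days. Of all 19829 genes tested, Snhg11 had the highest r with Meg3 and Meg3 the highest with Snhg11.

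Within the Dlk1-Dio3 domain, Meg3 varied with Mirg, while the pairs with Rian had opposite signs at the 2 time points. The r of Meg3 and Mirg was 0.696 (rho = 0.707, permutation adjusted p = 0.00462 and 0.0043; r = 0.642 without the 2 farthest mice). Meg3 and Rian gave r = 0.0387 (rho = -0.0539, permutation adjusted p = 0.854 and 0.836), and Rian and Mirg gave r = -0.327 (rho = -0.215, permutation adjusted p = 0.348 and 0.444). Over the 16 mice of each time point, r of Meg3 and Rian was -0.224 at 90 and 0.481 at 155 days, and r of Rian and Mirg was -0.622 and 0.375, whereas Meg3 and Mirg gave 0.752 and 0.649. The values per time point and their differences were not tested. Treated WT mouse 5 at 90 days held both the lowest Rian and the highest Mirg level of all mice. Rian varied with Miat, which lies on another chromosome, with r = 0.686 (rho = 0.639, permutation adjusted p = 0.0078 and 0.0158; r = 0.578 without the 2 farthest). Miat varied about as closely with Meg3 (r = 0.645, rho = 0.47, permutation adjusted p = 0.00977 and 0.0646, r = 0.453 without the 2 farthest). With Snhg11 it gave r = 0.644 (rho = 0.51, permutation adjusted p = 0.00707 and 0.0456, r = 0.479 without the 2 farthest). Neat1 varied with Meg3 (r = 0.606, rho = 0.613, permutation adjusted p = 0.00538 and 0.00929; r = 0.52 without the 2 farthest) and with Snhg11 (r = 0.641, rho = 0.554, permutation adjusted p = 0.00525 and 0.0158; r = 0.518 without them), although its mean moved the opposite way in G93A mice at 155 days. Neat1 and Malat1 gave r = 0.118 (rho = 0.236, permutation adjusted p = 0.673 and 0.392).

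**Figure D5:**
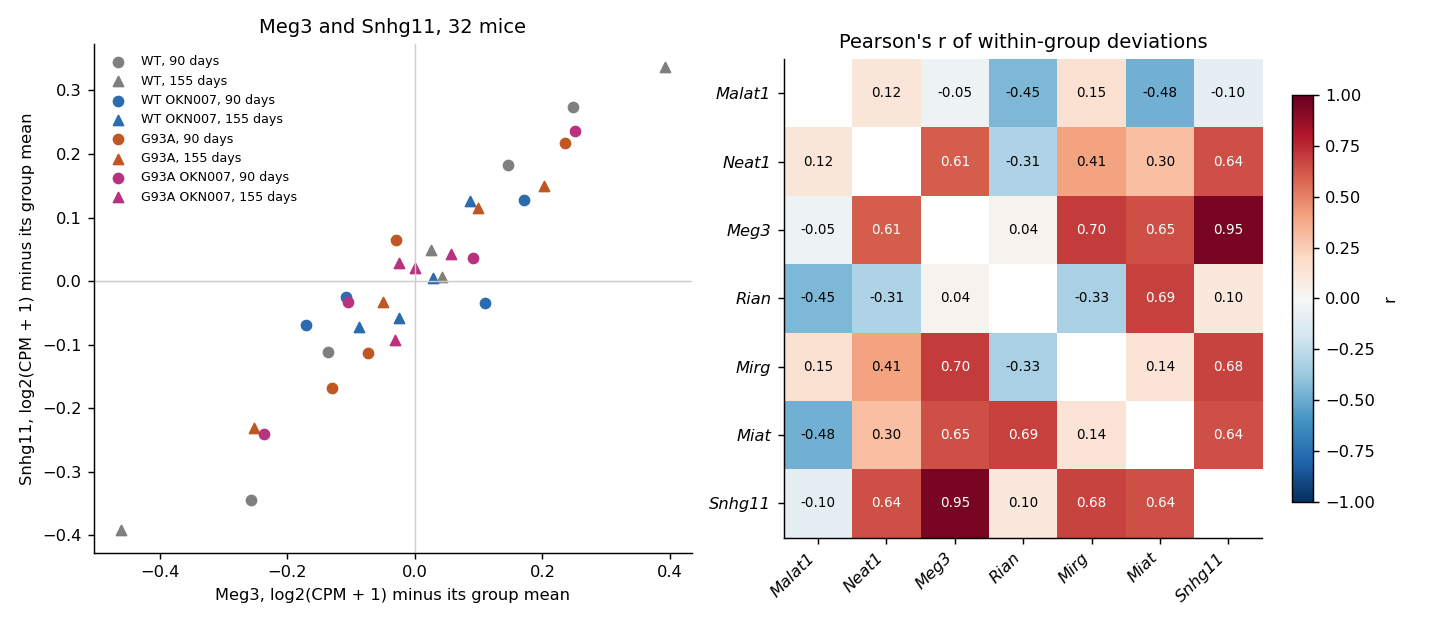
Left, deviation of log2(CPM + 1) of Meg3 (horizontal axis) and Snhg11 (vertical axis) from the group mean in 32 mice; right, Pearson's r of such deviations for each of the 21 pairs. The points of the left panel lie along a line (r = 0.95). On the right Meg3, Snhg11 and Mirg share r of at least 0.675, and Miat stands at 0.686 with Rian, 0.645 with Meg3 and 0.644 with Snhg11.

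The other genes with the highest within-group r are given as a description, since each was picked from 19829. They were Arhgef2 (r = 0.928), Ewsr1, an RNA-binding protein found in paraspeckles (0.881), and Trim68 (0.881) for Neat1; Tchh (0.907), Tub (0.897) and the potassium channel gene Kcnma1 (0.888) for Rian; and Pkd1 (0.881), Gramd1a (0.879) and the kinesin gene Kif17 (0.86) for Mirg. For Miat they were Gm49768 (0.892), the nuclear speckle gene Pnn (0.846) and Coro6 (0.843), and for Meg3 and Snhg11 after each other they were Zfp692 (0.878) and Gm40841 (0.878), and Gm40841 (0.897) and Mapkbp1 (0.887). For Malat1, Gm22009 (0.792), Gm12568 (0.785) and 9630050E16Rik (0.782) were genes of low level, at means of 2.15, 0.163 and 0.331 CPM.

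The promoters of Meg3 and Snhg11 are shown because these were the 2 members that varied most closely together. They are the 250 bases before and 50 after the first RefSeq start (GRCm38.p6, plus strand), 5′ to 3′, with 4 motifs searched on both strands and printed in capitals where they occur: the cAMP response element TGACGTCA, the CCAAT box, the TATA box TATAAA, whose matches on the 2 strands overlap in Meg3, and the GC box GGGCGG.
Meg3 (chr12:109540746-109541045): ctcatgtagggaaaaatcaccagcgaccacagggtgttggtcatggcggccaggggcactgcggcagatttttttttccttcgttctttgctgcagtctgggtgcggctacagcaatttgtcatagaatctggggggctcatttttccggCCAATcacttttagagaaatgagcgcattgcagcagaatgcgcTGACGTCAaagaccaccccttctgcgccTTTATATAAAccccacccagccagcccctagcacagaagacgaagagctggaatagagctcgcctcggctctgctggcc
Snhg11 (chr2:158375463-158375762): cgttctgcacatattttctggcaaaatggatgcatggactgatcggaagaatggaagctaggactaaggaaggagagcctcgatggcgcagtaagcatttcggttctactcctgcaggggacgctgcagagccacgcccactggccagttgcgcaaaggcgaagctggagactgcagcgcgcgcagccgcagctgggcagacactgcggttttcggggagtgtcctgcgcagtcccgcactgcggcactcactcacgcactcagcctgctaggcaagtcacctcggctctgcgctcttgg
In the Meg3 window TGACGTCA began 57 bases before the start, CCAAT 100 bases before and TATAAA 25 bases before, whereas the Snhg11 window held none of the 4. Over the 32851 promoters of the same length, TGACGTCA occurred in 1.79%, CCAAT in 37.4%, TATAAA in 13.6% and GGGCGG in 35.7%. The Meg3 window held 13 CpG and the Snhg11 window 21, against a median of 7 over all promoters. Of the other members, the Mirg window held CCAAT, the Miat window GGGCGG, and the Rian and Malat1 windows held none of the 4. The windows of Mirg (chr12:109734731-109735030) and Miat (chr5:112228899-112229198) lie inside the M21 spans of these genes. Their RefSeq starts thus differ from the M21 starts. Neat1 had no entry among the promoters and was not searched.

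Other genes of the same loci and compartments were taken from lists. Of the rest of the Dlk1-Dio3 domain, 3 genes were tested in untreated mice at 155 days and 2 were lower: Dlk1, a paternally expressed Notch ligand homologue, at -0.53 ± 0.13 (adjusted p = 0.00334), and Begain, which lies beside it, at -0.36 ± 0.072 (adjusted p = 0.00059). Rtl1, a retrotransposon-derived gene expressed from the paternal chromosome, stood at -0.32 ± 0.21 (adjusted p = 0.252), and in treated mice all 3 were lower, Rtl1 by 0.62 ± 0.21 (adjusted p = 0.0202). Dio3, a thyroid hormone deiodinase, did not pass the filter on low counts. Both the maternally and the paternally expressed genes called in this domain were thus lower in G93A mice. Over all genes tested 18.2% were called lower, in untreated and in treated mice alike. The calls of Meg3 and Mirg were lost with the score of caudal Hox genes, described further on, as a covariate.

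Around Malat1 and Neat1 on chromosome 19, 7 of 15 listed neighbours tested were higher and 2 lower in untreated mice at 155 days; over all genes tested 21.3% were higher and 18.2% lower. Their median log2 fold change was 0.34 against 0.000155 over all genes tested. Among them Frmd8 was at 0.55 ± 0.11 (adjusted p = 0.000496), and the largest increases were those of Sipa1 (1.14 ± 0.12, adjusted p = 2.91e-07), Slc25a45 (0.96 ± 0.13, adjusted p = 1.09e-05), Ehbp1l1 (0.85 ± 0.12, adjusted p = 1.74e-05) and the NF-kB subunit gene Rela (0.67 ± 0.093, adjusted p = 1.41e-05).

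Of the transcripts of paraspeckle proteins, 4 of 27 were higher and 2 lower in untreated mice at 155 days, beside 21.3% and 18.2% of all genes, and the median was -0.0244. Nono, an essential paraspeckle protein, was higher by 0.17 ± 0.064 (adjusted p = 0.0386), while Sfpq was at 0.087 ± 0.10 (adjusted p = 0.534), Pspc1 at -0.14 ± 0.063 (adjusted p = 0.0798) and Tardbp at -0.060 ± 0.080 (adjusted p = 0.586). The largest changes were those of Rbm7 (0.50 ± 0.072, adjusted p = 2.15e-05), Celf6 (-0.38 ± 0.10, adjusted p = 0.00577), Rbm4b (-0.32 ± 0.078, adjusted p = 0.00309) and Ewsr1 (0.25 ± 0.087, adjusted p = 0.027). Of 22 nuclear speckle genes, 3 were higher and 0 lower by edgeR's quasi-likelihood test, with a median of 0.102: the kinase genes Clk4 (0.46 ± 0.11, adjusted p = 0.00249) and Clk1 (0.35 ± 0.13, adjusted p = 0.0469), and Srsf6 (0.22 ± 0.075, adjusted p = 0.0285). Srrm2 and Son, the scaffold proteins of speckles, were at 0.0032 ± 0.089 (adjusted p = 0.981) and 0.097 ± 0.076 (adjusted p = 0.332).

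Of 26 imprinted genes outside the domain, 17 were lower and 4 higher in untreated mice at 155 days (median -0.41), where 18.2% of all genes were lower and 21.3% higher. In treated mice 12 were lower and 4 higher, beside 18.2% and 23.3% of all genes. Peg3, a zinc-finger protein, was at -0.61 ± 0.11 (adjusted p = 0.00017), Mest at -1.05 ± 0.14 (adjusted p = 9.25e-06), Zdbf2 at -0.79 ± 0.17 (adjusted p = 0.00124) and Magel2 at -0.69 ± 0.15 (adjusted p = 0.00161). The imprinted long noncoding RNA H19 went the other way, at 2.05 ± 0.33 (adjusted p = 8.62e-05) from 0.773 CPM ± 0.215 to 3.16 ± 1.83, and Kcnq1ot1, which silences its own imprinted cluster, stood at -0.11 ± 0.11 (adjusted p = 0.467). Of 15 other snoRNA host genes 8 were higher and 1 lower (median 0.383): Snhg1 rose by 0.74 ± 0.13 (adjusted p = 0.000216), Snhg15 by 0.73 ± 0.20 (adjusted p = 0.00766), Snhg6 by 0.53 ± 0.16 (adjusted p = 0.0112) and Gas5 by 0.35 ± 0.10 (adjusted p = 0.00999), and Snhg14, the imprinted host of the Prader-Willi snoRNAs, fell by 0.48 ± 0.078 (adjusted p = 8.6e-05).

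The genotype difference at 155 days coincided with different levels of cell type markers in the tissue. Over all genes tested in untreated mice, 18.2% were called lower and 21.3% higher. The summed level of 18 neuronal markers was 15550 to 20220 CPM in untreated WT and 7904 to 11110 CPM in untreated G93A mice, and 17 of the 18 were called lower (median -0.575), among them Rbfox3, the gene of NeuN, at -0.55 ± 0.065 (adjusted p = 2.2e-06). The sum of 12 microglial markers was 357 to 445 CPM in WT and 1664 to 3111 CPM in G93A mice, with all 12 higher, and that of 10 astrocyte markers 6661 to 7200 and 15200 to 19220 CPM, with 7 of 10 higher. No marker of these 3 lists was at 0 in any mouse of either group. In whole tissue, fewer cells of a type and less RNA per cell cannot be told apart, and the part of these shifts in the changes of the 7 RNAs was not tested. The sum of 7 liver genes was 1.19 to 20.01 CPM in untreated WT and 1.46 to 187 CPM in untreated G93A mice. It lay below the neuronal, microglial and astrocyte sums of the same group. Its highest value in G93A mice came close to the sum of 5 oligodendrocyte precursor genes there, 207.4 to 267.8 CPM. The part of such liver reads in the changes of the 7 RNAs was not tested.

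A score of caudal Hox genes, which mark how far down the cord tissue comes from, also differed with genotype at 155 days. As the mean of log2(CPM + 1) it ran from 2.54 to 3.57 in untreated WT and from 0.476 to 2.56 in untreated G93A mice. These ranges met only at mouse 12 of G93A. In treated mice it ran from 3.315 to 3.573 in WT and from 1.08 to 2.535 in G93A, without overlap. Genotype and score were thus nearly or wholly separate, and a fit with both cannot fully tell them apart. With this score as a covariate, Neat1 (1.2 ± 0.2, adjusted p = 0.000204) and Rian (-0.55 ± 0.11, adjusted p = 0.00162) stayed past the threshold in untreated mice, while the calls of Miat (-0.34, adjusted p = 0.075), Mirg (-0.23, adjusted p = 0.263) and Meg3 (-0.12, adjusted p = 0.572) were lost. In treated mice Neat1 (1.2 ± 0.22, adjusted p = 0.000527), Rian (-0.52 ± 0.11, adjusted p = 0.00259) and Miat (-0.48 ± 0.14, adjusted p = 0.0159) stayed past it, while Meg3 (-0.28, adjusted p = 0.178), Mirg (-0.33, adjusted p = 0.105) and Snhg11 (-0.19, adjusted p = 0.337) did not.

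Library quality was also set beside the members, in relations chosen after the data were seen. Over the 32 mice, the within-group deviation of Malat1 and the number of genes with a count gave r = 0.477 (rho = 0.416, permutation p = 0.0465 and 0.0398, adjusted p = 0.208 and 0.224 over 14 relations) and r = 0.302 without the 2 farthest mice. None of the 14 relations of the 7 RNAs to that number or to the mitochondrial share of counts passed the adjustment. The mitochondrial share was 5.54% to 8.24% at 90 days and 3.77% to 5.33% at 155 days, so that it moved with every comparison of time points, and its part in them was not tested.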

How the data were processed

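Poly(A)-selected, stranded libraries (TruSeq Stranded mRNA, NextSeq 500) of spinal cord pieces from 32 mice were used. The deposited values are raw read counts per gene. The study's methods name Trimmomatic, STAR, HTSeq and edgeR with GRCm38 and GENCODE M10, whereas the submitters' processing notes name featureCounts and the builds hg38, GRCm39 and mm39. Of the 42524 gene IDs, 96.9% had a symbol in GENCODE M21 and 1306 lay above its highest ID, so a later annotation was counted; coordinates here are those of M21. Genes were filtered with filterByExpr, scaled by TMM and tested with glmQLFit and glmQLFTest in edgeR 4.0.16 (R 4.3.3), with all 16 mice of a time point in 1 fit, or all 32 for comparisons between time points. An SE is the absolute log2 fold change over the square root of F. Ratios were compared by exact permutation tests and correlations by permutation within groups (numpy 2.4.6, scipy 1.17.1). The fit was tested on simulated data. Alternatives used DESeq2 1.42.0, other filters, scalings, samples and covariates, and left out each mouse. The members and the gene lists were chosen with earlier results of these data known. Named genes were the members, up to 4 called genes per list with the largest change in untreated mice at 155 days, a fixed set of loci and marker genes, and the 3 genes most correlated with each member. A few listed genes are not reported here. Labels do not tie replicates to separate litters or batches, so p-values measure the spread between these mice.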

Additional observations from a re-analysis of the deposited data

Results flagged for a closer look

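In 3 of the 56 groups of 4 mice, 1 mouse lay far from the other 3 by Dixon's test, where chance gives about 1 in 20, or 2.8. Rian was lowest in the untreated WT mouse 2 at 155 days, at 402.1 CPM with the next mouse at 498.1 CPM. Mirg was highest in the untreated WT mouse 4 at 155 days, at 45.33 CPM with the next at 32.18 CPM. Snhg11 was lowest in the treated G93A mouse 16 at 155 days, at 2030.0 CPM with the next at 2197 CPM.

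The log2 fold change of G93A over WT differed between 90 and 155 days for Neat1 in untreated mice by 1.43 (adjusted p = 0.000504) and in treated mice by 1.2 (adjusted p = 0.00283). In treated mice it also differed for Rian by -0.559 (adjusted p = 0.0102) and for Miat by -0.535 (adjusted p = 0.00989), by an interaction term tested in edgeR. The time points cannot be told apart from any batch that goes with them.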

How the results depend on the processing

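Of 517 log2 fold changes of members under alternatives other than leaving out a mouse, 477 kept their direction and their side of the threshold, 15 lost and 20 gained a call, and 5 reversed. Of 584 with a mouse left out, 527 kept both, 32 lost and 13 gained a call, and 12 reversed. The causes were not tested. When the caudal Hox score entered as a covariate, the number of members called at 155 days went from 5 to 2 in untreated and from 6 to 3 in treated G93A against WT mice, and from 5 to 3 between time points in untreated G93A mice. With only the compared groups in the fit it was 3 for untreated G93A against WT mice. For the difference of the G93A change between time points in untreated mice, 1 was called, but 3 at an adjusted p under 0.10 and 2 each with RLE size factors, DESeq2, the edgeR likelihood ratio test or at least 10 counts in every mouse. Between time points in untreated WT mice 3 were called, but 5 at an adjusted p under 0.10 and 5 with at least 10 counts in every mouse. With a mouse left out, the count ran from 3 to 7 in untreated G93A against WT mice at 155 days, from 1 to 2 for that difference of changes, and between time points from 1 to 4 in untreated WT, 1 to 4 in treated WT and 3 to 5 in treated G93A mice.

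Reversals touched only values that had not passed the test. With the Hox score, Malat1 in treated G93A against WT mice at 155 days was -0.0048, and the difference of the untreated G93A change between time points was 0.062 for Malat1, 0.10 for Meg3 and 0.12 for Snhg11. With a mouse left out, that difference ran from -0.14 to 0.21 for Malat1, -0.24 to 0.034 for Meg3 and -0.16 to 0.07 for Snhg11. Between time points, Miat in untreated WT ran from -0.1 to 0.1 and Snhg11 in treated WT from -0.086 to 0.0067. Among ratios of G93A against WT mice at 90 days, Rian to Meg3 ran from -0.0493 to 0.166 in untreated and -0.0257 to 0.324 in treated mice, and in treated mice Mirg to Meg3 ran from -0.0183 to 0.139 and Neat1 to Malat1 from -0.13 to 0.0337. At 155 days Mirg to Meg3 ran from -0.137 to 0.0515 in untreated and -0.0299 to 0.0583 in treated mice.

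Sample numbers are shared between time points by different mice, and deviations of same-numbered mice correlated at -0.221 to 0.26, above 0.1 in 4 of 16 pairs, so they mark no pairing. With the replicate block, Snhg11 between time points in untreated WT mice was called (-0.32, adjusted p = 0.0161), raising that count from 3 to 4, and the difference of the untreated G93A change for Malat1 was 0.0017; no other call of a member changed. The lowest member count, 596, lay far above the floor of 3 counts.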

Other observations

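Among 24 other long noncoding RNAs tested in untreated mice at 155 days, 6 were higher and 5 lower in G93A mice (median 0.102). Of all genes, 21.3% were higher and 18.2% lower. In treated mice 8 were higher and 3 lower, beside 23.3% and 18.2% of all genes. Among untreated mice Mir142hg, the host of a miRNA of blood and immune cells, was called higher, at 0.656 CPM ± 0.509 (SD, n = 4) in G93A and 0.116 ± 0.0849 in WT mice (adjusted p = 0.00313 by edgeR). Mir155hg, host of an inflammation-related miRNA, was called higher too, at 0.413 ± 0.256 and 0.161 ± 0.0494 CPM (adjusted p = 0.0239 by edgeR). The WT levels of both were near that of 3 counts in a library, so no fold is given. Mir99ahg was higher by 0.79 ± 0.17 on the log2 scale (adjusted p = 0.00118). Hotair, transcribed from the HoxC cluster, was called lower, at 0.211 CPM ± 0.257 in G93A and 2.4 ± 2.03 in WT mice (adjusted p = 0.00943), with caudal Hox genes at a median of -1.4 and 2 of 6 called lower.

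Of the other marker lists, 10 of 11 motor neuron genes were lower (median -0.599), 5 of 5 oligodendrocyte precursor genes were higher (median 0.721) and 2 of 10 oligodendrocyte genes were higher (median 0.0211) in untreated G93A mice at 155 days. Over all genes tested 18.2% were lower and 21.3% higher. Of 7 endothelial genes 0 were called by edgeR's quasi-likelihood test (median -0.187), and of 5 liver genes tested 0 were called (median 2.72).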
